A study of Mus musculus with 7 samples.

Results

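Milk sugar is made in the Golgi of the secretory luminal cell, and 8 mouse genes that make lactose or bring in and convert its glucose were followed: *B4galt1*, *Slc2a1*, *Slc2a8*, *Slc35a2*, *Ugp2*, *Pgm1*, *Pgm2* and *Galt*. They were chosen by their known roles, but with earlier results of these data already known. Matching was by symbol and gene ID among the 37310 genes of the count table. All 8 were among the 17175 genes with enough reads to test. *Lalba* is given beside them for comparison. RNA-seq was performed on whole mammary glands of C57BL/6 mice at lactation day 1, with 3 WT and 4 *Tardbp* KO libraries. WT glands were *Tardbp* wt/wt and KO glands were *Tardbp* fl/fl, and both carried WAP-Cre, so that the transgene itself was shared. Cre was under the control of the whey acidic protein promoter, which is active in luminal epithelial cells from mid pregnancy, and it removes exons 2 and 3 of *Tardbp*, the gene of the RNA-binding protein TDP-43. Other cells of the gland are not targeted by this design. The labels call the libraries separate samples without naming mice, and the study's heatmap of these data counts 3 WT and 4 KO mice. The p-values measure the spread between these libraries.

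Lactose is joined from glucose and UDP-galactose by lactose synthase, a complex of the Golgi enzyme B4GALT1 and the milk protein α-lactalbumin, the product of *Lalba*. B4GALT1 alone adds galactose to glycoproteins, and α-lactalbumin turns it towards glucose. Glucose enters the cell mainly through SLC2A1, is phosphorylated, moved between phosphate positions by phosphoglucomutase, activated to UDP-glucose by UGP2, converted to UDP-galactose and carried into the Golgi by SLC35A2. Lactose draws water into milk and so sets much of its volume.

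Total counts per library were between 36007737 and 42811337. *Tardbp* itself stood at 187 ± 32.6 CPM (counts scaled to a common library size; SD, n = 3) in WT and 188 ± 28.2 CPM (n = 4) in KO. This whole-gene count would take in cells without Cre and any transcripts lacking only the deleted exons, so it does not check the labels. Why the levels were alike was not tested. The gland's own markers were present in every library: 6 milk protein genes (*Csn1s1*, *Csn1s2a*, *Csn1s2b*, *Csn2*, *Csn3* and *Wap*) summed to between 303700 and 454220 CPM in WT and between 109610 and 211040 CPM in KO. A list of 10 lymphocyte genes summed to between 38.2 and 55.7 CPM in WT and to 406, 65.3, 554 and 123 CPM in KO replicates 1 to 4, all 10 being higher at an unadjusted p under 0.05 and none being at 0 in all libraries. Over all tested genes 10.7% were higher at that limit. The sums of 7 other marker lists (myoepithelium, adipocytes, myeloid cells, endothelium, fibroblasts, skeletal muscle and red blood cells) overlapped between genotypes. Only sequencing lane 4 held both genotypes, with WT replicate 2 and KO replicates 3 and 4.

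TDP-43 binds runs of UG in RNA, and the 2 longest such runs among these genes are shown because they lie in the last exon of *B4galt1* and *Slc35a2*, the enzyme and the UDP-galactose carrier of the Golgi. Each is printed 5′ to 3′ on the transcript strand as 30 bases with the run in capitals, T standing for U. The run of *B4galt1* is at chr4:40753701-40753710 on the minus strand, in the 3′ UTR, exon 6 of 6 of ENSMUST00000030121, and that of *Slc35a2* is at chrX:7470920-7470937 on the plus strand, in the 3′ UTR, exon 4 of 4 of ENSMUST00000115660 (NCBIM37, GENCODE vM1).
B4galt1: ttacaatcacTGTGTGTGTGtcttttctta
Slc35a2: cccagaTGTGTGTGTGTGTGTGTGttcgcg

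The run of *Slc35a2* held 9 UG dinucleotides and that of *B4galt1* held 5. Over the longest transcript of each gene, runs of 3 or more UG summed to 19 dinucleotides in *Slc35a2*, 12 in *Pgm2*, 9 in *Slc2a8*, 8 in *B4galt1*, 6 in *Ugp2* and 6 in *Pgm1*, and there were none in *Slc2a1*, *Galt* and *Lalba*. Among 15112 tested genes with such a transcript, 71.5% had at least 1 run, 9.49% had a run of 5 or more, 3.94% had a run of 9 or more and the median was 3 dinucleotides, and *Slc35a2* and *B4galt1* were the members with a run of 5 or more. No link between these runs and the levels was tested.

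The promoters of *B4galt1* and *Slc2a1*, the 2 members with the lowest KO level relative to WT, are shown with that of *Lalba*. Each is the 250 bases before the RefSeq start (GRCm38.p6), on the gene's own strand, with every GGGCGG (GC box), CACGTG (E-box) and TTCNNNGAA (the letters that STAT5 dimers prefer) in capitals on either strand. The windows are chr4:40853985-40854234 on the minus strand, chr4:119108495-119108744 on the plus strand and chr15:98482684-98482933 on the minus strand.
B4galt1: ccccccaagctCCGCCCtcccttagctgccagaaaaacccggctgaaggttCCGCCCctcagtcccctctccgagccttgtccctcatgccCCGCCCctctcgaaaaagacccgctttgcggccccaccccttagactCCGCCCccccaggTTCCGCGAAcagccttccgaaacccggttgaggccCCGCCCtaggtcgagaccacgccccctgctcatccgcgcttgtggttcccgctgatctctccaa
Slc2a1: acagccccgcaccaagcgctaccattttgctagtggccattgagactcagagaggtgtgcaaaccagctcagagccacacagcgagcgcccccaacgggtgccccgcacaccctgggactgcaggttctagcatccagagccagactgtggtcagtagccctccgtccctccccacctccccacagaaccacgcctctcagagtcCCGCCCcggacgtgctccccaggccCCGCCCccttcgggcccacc
Lalba: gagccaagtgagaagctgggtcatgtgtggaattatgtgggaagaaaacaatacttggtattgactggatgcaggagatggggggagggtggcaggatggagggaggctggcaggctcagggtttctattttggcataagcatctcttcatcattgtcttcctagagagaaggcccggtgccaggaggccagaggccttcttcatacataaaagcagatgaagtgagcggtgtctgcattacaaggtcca

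The *B4galt1* window held 5 GC boxes and 1 TTCNNNGAA, the *Slc2a1* window held 2 GC boxes, and the *Lalba* window held none of the 3 motifs. Of 32851 windows of the same length, 32.7% held a GC box, 7.02% a TTCNNNGAA and 6.02% an E-box. No motif overlapped another. These are matches of letters, and no binding was measured here.

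Per length, the genes spanned a wide range of levels in WT glands. *Lalba* stood at 7572 ± 269 RPKM (CPM divided by the exon length in kilobases; SD, n = 3) and ranked 6 of 17175 tested genes, and *B4galt1* stood at 330 ± 58.5 RPKM and ranked 83. *Slc2a1* followed at 63.4 ± 18.9 RPKM, with *Ugp2* at 27.1 ± 3.57, *Slc35a2* at 23.8 ± 6.75, *Pgm2* at 18.6 ± 1.54, *Pgm1* at 10.3 ± 2.30, *Slc2a8* at 9.22 ± 1.96 and *Galt* at 8.03 ± 2.05 RPKM. The WT libraries of *Lalba*, *B4galt1*, *Slc2a1* and *Ugp2* did not overlap between neighbours in this order. *Ugp2* and *Slc35a2* overlapped, as did *Slc35a2* and *Pgm2*, *Pgm1* and *Slc2a8*, and *Slc2a8* and *Galt*, so the order within these pairs was not resolved. In KO glands *B4galt1* still led the 8 genes with 128 ± 42.7 RPKM (n = 4), whereas *Slc2a1*, at 29.4 ± 4.86 RPKM and between 24.9 and 35.4, overlapped with *Ugp2*, at 23.6 RPKM and between 19.7 and 31.0.

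**Figure D1:**
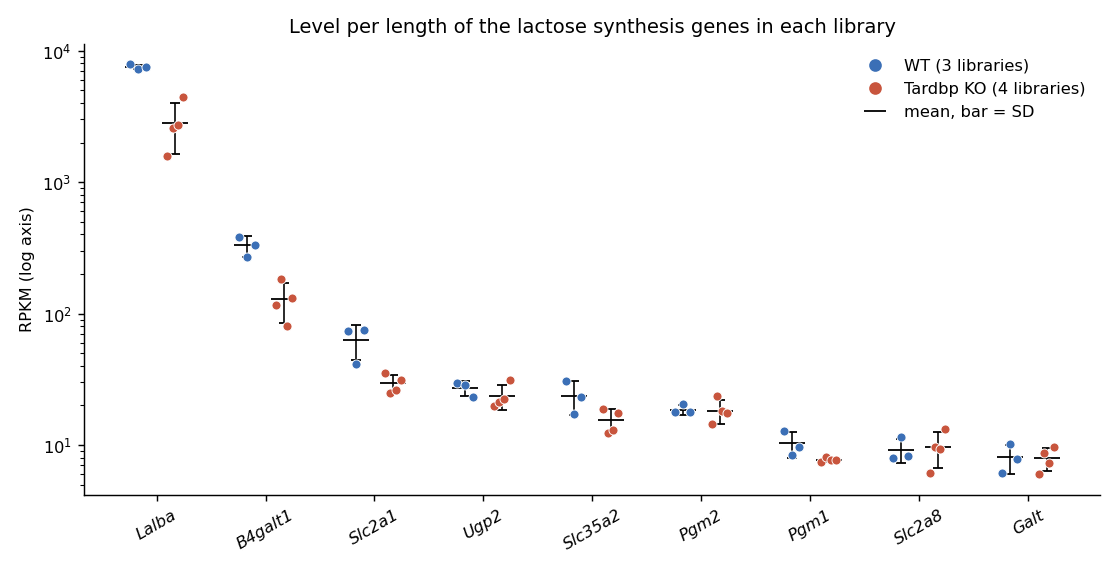
Level per length (RPKM, log axis) of each gene in each library, with WT in blue (3 libraries), *Tardbp* KO in red (4 libraries), horizontal marks at the mean and bars of 1 SD. The KO points of *Lalba*, *B4galt1*, *Slc2a1* and *Pgm1* lie below all WT points, and those of the other genes overlap with WT.

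The gene of the lactose-forming enzyme had the largest log2 fold change of the 8. *B4galt1* (ENSMUSG00000028413, chr4:40751635-40801038, minus strand, NCBIM37) was at 1633, 1139 and 1416 CPM in WT replicates 1 to 3 and at 494, 775, 340 and 560 CPM in KO replicates 1 to 4. Every KO library lay below every WT library. Mean CPM in KO was 38.8% of that in WT, with a log2 fold change of -1.36 (SE 0.28, 95% interval -2.01 to -0.72). The adjusted p of edgeR's quasi-likelihood test was 0.0753, above the threshold of 0.01 that the study used together with an absolute log2 fold change above 1. The 2-sided exact permutation test over the 7 libraries gave p = 0.0286, the smallest it can give. In a whole gland, fewer cells of a type and less RNA per cell cannot be told apart. The 6 luminal markers *Krt7*, *Krt8*, *Krt18*, *Krt19*, *Epcam* and *Cdh1* summed to between 1531 and 2280.3 CPM in WT and between 2280.7 and 3033 CPM in KO. At an unadjusted p under 0.05, 3 of the 6 were higher, beside 10.7% of all tested genes. Of the 6 milk protein genes, which mark secretory luminal cells, 4 were lower at an unadjusted p under 0.05, beside 10.7% of all tested genes. In 6 of 6 every KO library lay below every WT library, beside 9.62% of all tested genes, with a median log2 fold change of -1.09. The part of either in the result was not tested.

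Its partner *Lalba* (ENSMUSG00000022991, chr15:98310831-98313114, minus strand) was at 5758, 5366 and 5526 CPM in WT and at 1148, 1889, 2010 and 3244 CPM in KO. Here too every KO library lay below every WT library, but the KO libraries were ordered differently. *Lalba* was lowest in KO replicate 1 and highest in KO replicate 4, and *B4galt1* was lowest in KO replicate 3 and highest in KO replicate 2. For *Lalba* the log2 fold change was -1.42 (SE 0.34, 95% interval -2.20 to -0.64), with an adjusted p of 0.0858 by edgeR's quasi-likelihood test and an exact permutation p of 0.0571 on the log2 scale. The difference between both genes, *Lalba* minus *B4galt1* on the log2(CPM + 1) scale, was 2.01 ± 0.21 (SD, n = 3) in WT and 1.90 ± 0.75 (n = 4) in KO. That difference did not pass an exact permutation test between genotypes (p = 0.8, adjusted p = 0.8 over 8 pairs), and in KO it ranged from 1.22 to 2.56.

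*Slc2a1* (ENSMUSG00000028645, chr4:118781316-118809935, plus strand) encodes GLUT1, the main glucose transporter of the lactating cell. It was at 210, 118 and 214 CPM in WT and at 101, 70.9, 74.5 and 89.3 CPM in KO. The groups did not overlap, although WT replicate 2 lay much closer to the KO libraries than to the other WT libraries. Between genotypes *Slc2a1* had a log2 fold change of -1.11 (SE 0.23, 95% interval -1.63 to -0.59), with a KO mean of 46.4% of WT, an adjusted p of 0.0753 by edgeR's quasi-likelihood test and an exact permutation p of 0.0286. The value within lane 4, WT replicate 2 against KO replicates 3 and 4, was -0.53 for *Slc2a1*, against -1.38 for *B4galt1* and -1.07 for *Lalba*.

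*Slc2a8* (ENSMUSG00000026791, chr2:32828510-32837603, minus strand), the gene of the intracellular glucose transporter GLUT8, was at 18.5, 26.8 and 19.4 CPM in WT and at 14.3, 22.5, 21.8 and 30.9 CPM in KO. The groups overlapped fully, with both the lowest and the highest value in KO. Its log2 fold change was 0.05 with a 95% interval from -0.53 to 0.64, which leaves room for a difference of either sign.

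The genes of the enzymes that convert sugar phosphates had log2 fold changes nearer to 0. The symbols *Pgm1* and *Pgm2* are exchanged between annotations: the count table's *Pgm2* lies on chromosome 4 and is named Pgm1 by RefSeq, and its *Pgm1* lies on chromosome 5 and is named Pgm2 by RefSeq. The chromosome 4 gene encodes the main phosphoglucomutase of glucose metabolism, and the chromosome 5 gene encodes an enzyme that prefers pentose phosphates. *Pgm2* (ENSMUSG00000025791, chr4:99602019-99659899, plus strand) was at 51.7, 59.5 and 51.7 CPM in WT and at 41.8, 68.3, 52.7 and 50.8 CPM in KO. The KO libraries lay on both sides of the WT libraries, with a log2 fold change of -0.02 (95% interval -0.42 to 0.37). *Pgm1* (ENSMUSG00000029171, chr5:64484175-64519594, plus strand) was at 33.4, 21.7 and 25.1 CPM in WT and at 19.5, 21.2, 20.1 and 19.9 CPM in KO. All KO libraries lay just below the lowest WT library, with KO replicate 2 and WT replicate 2 the closest. For *Pgm1* the log2 fold change was -0.41 (95% interval -0.79 to -0.03), with an adjusted p of 0.204 by edgeR's quasi-likelihood test and an exact permutation p of 0.0286. The unadjusted p of *Pgm1*, 0.0373, stayed under 0.05 only without WT replicate 2 (0.0118) and was between 0.0563 and 0.192 without any other library, with a log2 fold change of -0.22 without WT replicate 1. Of the exon bases of *Pgm2*, 13.6% overlap with *Itgb3bp* on the opposite strand, and reads there could not be assigned by strand. Whether such reads were counted or left out was not checked, which also bears on the RPKM over the full exon length.

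*Ugp2* (ENSMUSG00000001891, chr11:21221141-21271204, minus strand), the gene of the enzyme that makes UDP-glucose, was at 91.5, 87.1 and 70.7 CPM in WT and at 60.4, 64.8, 68.7 and 95.2 CPM in KO. KO replicates 1 to 3 lay below all WT libraries and KO replicate 4 above them. Its log2 fold change was -0.20 with a 95% interval from -0.62 to 0.22. *Galt* (ENSMUSG00000036073, chr4:41702101-41705568, plus strand), the gene of the enzyme that exchanges galactose phosphate and UDP-glucose, was at 15.1, 25.1 and 19.3 CPM in WT and at 14.8, 21.6, 18.0 and 23.8 CPM in KO. The groups overlapped, with a log2 fold change of -0.02 (95% interval -0.53 to 0.49). The caution over strand given for *Pgm2* also holds for *Galt*.

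*Slc35a2* (ENSMUSG00000031156, chrX:7461167-7471618, plus strand), the gene of the carrier that brings UDP-galactose into the Golgi, was at 94.7, 53.2 and 71.9 CPM in WT and at 58.3, 38.2, 39.9 and 54.1 CPM in KO. KO replicates 1 and 4 lay above WT replicate 2, and all KO libraries lay below the other WT libraries. *Slc35a2* had a log2 fold change of -0.62 (SE 0.23, 95% interval -1.14 to -0.10) with an adjusted p of 0.168 by edgeR's quasi-likelihood test, and the exact permutation p was 0.143. The unadjusted p of *Slc35a2* was 0.0239, and it rose to 0.121 without WT replicate 1 (log2 fold change -0.39), 0.0516 without WT replicate 3, 0.0625 without KO replicate 2 and 0.0634 without KO replicate 3. Within lane 4 the value of *Slc35a2* was -0.19.

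**Figure D2:**
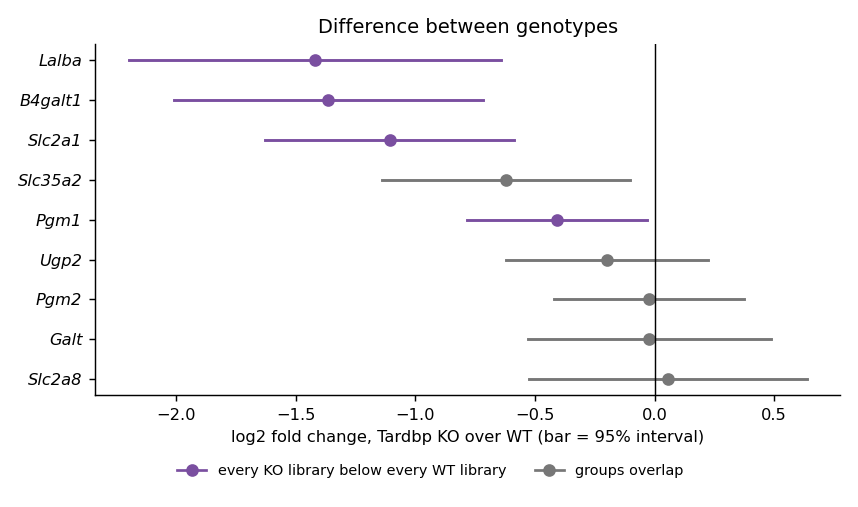
Log2 fold change (*Tardbp* KO over WT, x axis) of each gene with its 95% interval as a bar, purple where every KO library lay below every WT library and grey where the groups overlapped. *Lalba*, *B4galt1* and *Slc2a1* lie between -1.42 and -1.11, and the intervals of *Ugp2*, *Pgm2*, *Galt* and *Slc2a8* include 0.

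Over the 8 genes, 4 were lower (*B4galt1*, *Slc2a1*, *Slc35a2* and *Pgm1*) and 0 higher at an unadjusted p under 0.05, where 10.7% of all tested genes were lower and 10.7% higher. In 3 (*B4galt1*, *Slc2a1* and *Pgm1*) every KO library lay below every WT library, as in 9.62% of all tested genes, and in 0 every KO library lay above, as in 9.07%. The median log2 fold change was -0.30, beside 0.05 over all tested genes. By the quasi-likelihood test at the study's limits 0% of the tested genes were called (0 of 17175, with 3674 at an unadjusted p under 0.05), and the members' adjusted p ran from 0.0753 to 0.969. With those limits, 1.44% of all tested genes were called lower and 1.04% higher by edgeR's exact test, and DESeq2 called 1.64% lower and 1.69% higher. Both called *B4galt1* (adjusted p of 4.6e-04 by the exact test and 2.4e-04 by DESeq2), *Slc2a1* (0.00121 and 0.00126) and *Lalba* (0.00111 and 5.3e-04) lower, and none of the other 6 genes.

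With library sizes alone in place of TMM normalization (trimmed mean of M values), the median of all genes moved from 0.05 to 0.42, and *B4galt1* was at -0.99, *Slc2a1* at -0.73, *Slc35a2* at -0.24 and *Pgm1* at -0.02. All 4 lay below that shifted median, and their unadjusted p against 0 was 0.0043, 0.00713, 0.241 and 0.922. The KO libraries ranked in *B4galt1* exactly against their lymphocyte sums: replicate 3 had the lowest *B4galt1* and the highest sum, followed by 1, 4 and 2. From the lowest, the KO replicates ranked 2, 3, 4 and 1 in *Slc2a1* and 1, 2, 3 and 4 in *Lalba*, which did not follow those sums. With the lymphocyte level as a covariate the log2 fold change of *B4galt1* was -0.82 (unadjusted p of 0.0422) and that of *Slc2a1* was -1.26 (0.0091). In the same fit *Slc35a2* was at -0.79 (0.0587) and *Pgm1* at -0.39 (0.178). The lymphocyte sums did not overlap between genotypes (at most 55.7 CPM in WT, at least 65.3 CPM in KO). The covariate therefore takes up part of the genotype difference, and this fit cannot separate them. Without KO replicates 1 and 3 *B4galt1* was at -1.06 and *Slc2a1* at -1.17.

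The members were also set against *B4galt1* within each library, which is free of the scaling of libraries apart from the 1 added before taking logs. Relative to *B4galt1*, *Slc2a8*, *Galt*, *Pgm2*, *Ugp2* and *Pgm1* were between 1.04 (*Pgm1*) and 1.43 (*Slc2a8*) higher in KO than in WT on the log2 scale, and for these 5 every KO library lay above every WT library in that difference. *B4galt1* itself had the largest fall of the members (-1.36), so a gene with little change of its own rises against it. On their own *Slc2a8*, *Galt* and *Pgm2* were at 0.05, -0.02 and -0.02, so their differences largely restate the fall of *B4galt1*. All pairs share *B4galt1* and are not independent, and the share of all tested genes with such a separation was not counted. The exact permutation p was 0.0286 for *Slc2a8*, *Galt* and *Pgm2* (adjusted p of 0.0762 over the 8 pairs) and 0.0571 for *Ugp2* and *Pgm1* (adjusted 0.0914). *Slc35a2* was 0.81 higher relative to *B4galt1* (exact permutation p = 0.114, adjusted 0.152) and *Slc2a1* 0.35 higher (p = 0.371, adjusted 0.424), with overlapping groups in both. The KO values of *Slc2a1* minus *B4galt1* ran from -3.43 to -2.17 and the WT values from -3.25 to -2.72.

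The other steps of the route were followed through 60 genes in 9 lists, of which 56 could be tested. These lists too were chosen with earlier results of these data known. At an unadjusted p under 0.05, 13 were lower and 2 higher, and in 13 every KO library lay below every WT library and in 0 above. Over all tested genes these shares were 10.7% lower, 10.7% higher, 9.62% below and 9.07% above. The median log2 fold change was -0.10.

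Of the 4 genes of galactose use, 1 was lower at an unadjusted p under 0.05 with every KO library below every WT library. Over all tested genes 10.7% were lower and in 9.62% every KO library lay below. The list had a median of -0.25.

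At the entry of glucose, *Hk2*, the gene of the inducible hexokinase, was at 118, 41.3 and 76.1 CPM in WT and at 30.5, 28.3, 14.2 and 22.6 CPM in KO, with a log2 fold change of -1.71 (SE 0.36, adjusted p of 0.0753 by edgeR's quasi-likelihood test). The other 5 tested hexokinase and glucose phosphate genes had overlapping groups, among them *Hk1* at -0.23 and *Gpi1*, the highest of the list by RPKM, at 0.15. Of the 10 tested glucose transporters, only *Slc2a9* was lower at an unadjusted p under 0.05, near the 10.7% over all tested genes. *Slc2a9*, whose product carries urate and hexoses, was at 150 ± 4.81 CPM (SD, n = 3) in WT and 75.1 ± 20.8 CPM (n = 4) in KO. The median of this list was 0.14. The low-level *Slc2a2*, *Slc5a2* and *Hkdc1* were among the genes not tested.

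In the Golgi, *Tmem165*, whose product is needed for the manganese that galactosyltransferases use, was at 350, 211 and 293 CPM in WT and at 91.4, 140, 73.9 and 105 CPM in KO. No library overlapped, and the log2 fold change was -1.47 (SE 0.25) with an adjusted p of 0.0642 by edgeR's quasi-likelihood test. The calcium and manganese pump gene *Atp2c2*, the highest of this list by RPKM, was at 736, 846 and 734 CPM in WT and at 164, 391, 457 and 786 CPM in KO. KO replicate 4 lay within the WT range, and the log2 fold change was -0.78 with an unadjusted p of 0.0977.

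Of the 9 nucleotide sugar transporters, 4 were lower at an unadjusted p under 0.05 and 5 had every KO library below every WT library, beside 10.7% and 9.62% of all tested genes. *Slc35a3*, the gene of a carrier of UDP-N-acetylglucosamine, was at 78.7, 68.3 and 66.7 CPM in WT and at 27.3, 35.1, 39.2 and 32.2 CPM in KO, with a log2 fold change of -1.09 (SE 0.15, adjusted p of 0.0517 by edgeR's quasi-likelihood test). Its difference was large beside the spread in both groups. *Slc35b1*, the highest of the list by RPKM, was at -1.10, *Slc35a4* at -0.69 and *Slc35c1*, the gene of the GDP-fucose carrier, at -0.68, whereas *Slc35a1*, the gene of the CMP-sialic acid carrier, was at -0.20 with overlapping groups.

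Relatives of the members were followed too. In the β-1,4-galactosyltransferase family without *B4galt1*, 0 of 6 genes were lower and 1 was higher at an unadjusted p under 0.05, near the 10.7% each way over all tested genes, with a median of 0.30. The higher gene was *B4galt6*, the gene of a lactosylceramide synthase, at 14.8 ± 5.18 CPM (SD, n = 3) in WT and 24.7 ± 3.94 CPM (n = 4) in KO. *B4galt7*, whose product acts in making proteoglycan chains and which is the highest of the list by RPKM, was at -0.38. Among the phosphoglucomutase relatives, *Pgm3*, whose product works towards UDP-N-acetylglucosamine, was at -0.97 (adjusted p of 0.0953 by edgeR's quasi-likelihood test), and *Pgm5* was at 0.43 with overlapping groups.

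UDP-glucose also feeds glycogen and protein folding, and 2 of these 11 genes were lower and 1 higher at an unadjusted p under 0.05, near the 10.7% each way over all tested genes, with a median of 0.15. *Uggt1*, the glucosyltransferase of folding glycoproteins, was at -0.47, *Gyg*, which primes glycogen, at 0.71 and *Pygb*, a glycogen phosphorylase, at -0.08. Of the 3 water channel genes, *Aqp3* was at -1.23 (adjusted p of 0.106 by edgeR's quasi-likelihood test) with no overlap, *Aqp5* at -0.85 (adjusted p of 0.217) with overlap, and *Aqp1*, the highest by RPKM, at 0.07.

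**Figure D3:**
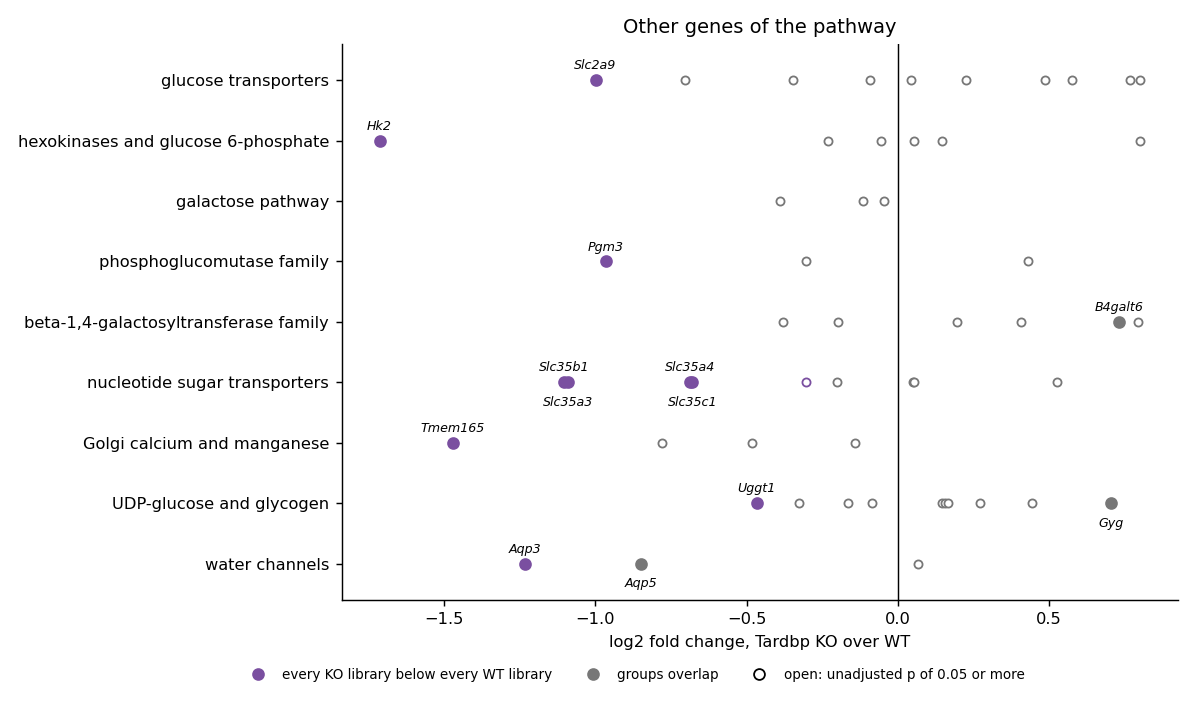
Log2 fold change (*Tardbp* KO over WT, x axis) of 54 tested genes of 9 pathway lists (rows), purple where every KO library lay below every WT library and grey where the groups overlapped, filled where the unadjusted p was under 0.05. *Hk2* lies farthest to the left of those drawn at -1.71, followed by *Tmem165* at -1.47.

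Across the 7 libraries, the 5 genes most like *B4galt1* by Pearson's r of log2(CPM + 1), among 9382 genes of at least 10 CPM, were *Tmem165* (r = 0.991), *Slc34a2* (0.989), *Chrdl2* (0.988), *Slc5a6* (0.987) and *Tbc1d13* (0.984). *Lalba*, its partner in the complex, ranked 960 with an r of 0.811, and *Slc2a1* ranked 777 with 0.832. The 4 genes most like *Slc2a1* were *Slc35a4* (0.993), *Dnaja3* (0.990), *Sardh* (0.989) and *Mthfd1* (0.986), and *Slc35a2* ranked 381 with 0.925. These values describe 7 libraries that share the genotype difference and the scaling, and they carry no test. *Slc34a2*, a sodium phosphate cotransporter gene, went from 909 CPM in WT to 184 CPM in KO, and *Sardh*, the gene of a mitochondrial one-carbon enzyme, from 74.7 to 24.4 CPM.

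**Figure D4:**
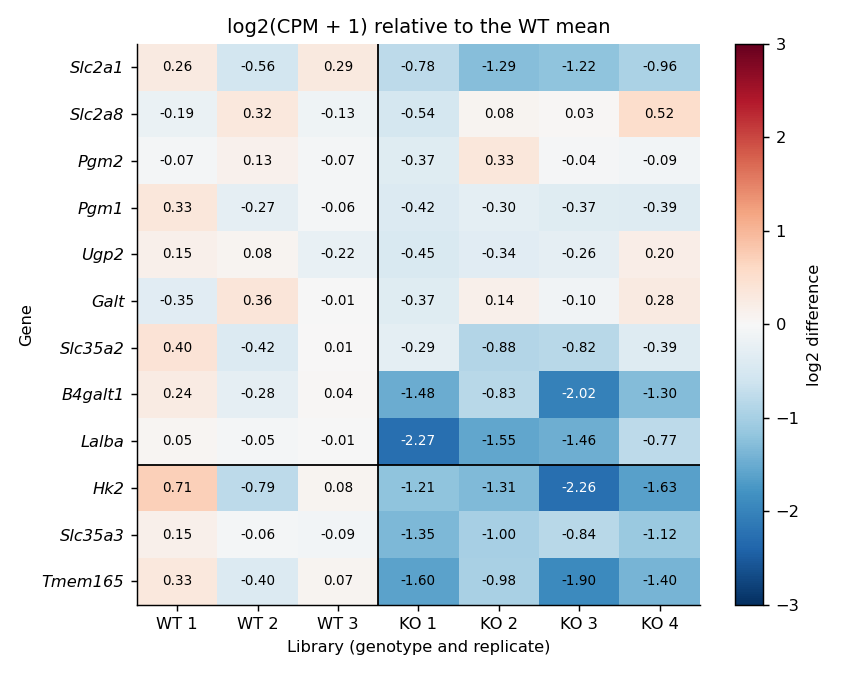
Difference of each library from the WT mean on the log2(CPM + 1) scale (colour and printed value) for the 8 genes and *Lalba* (above the line) and for *Hk2*, *Slc35a3* and *Tmem165* (below it), with libraries in columns. *B4galt1* and *Tmem165* share their order over the KO libraries, lowest in KO replicate 3 (-2.02 and -1.90) and highest in KO replicate 2 (-0.83 and -0.98), and *Slc2a1* and *Hk2* share a low WT replicate 2 (-0.56 and -0.79).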

How the data were processed

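RNA was extracted from frozen glands with Trizol, and libraries were made with the Illumina TruSeq kit, which does not keep strand. The authors mapped reads with STAR (2.5.2a per the submitters' processing notes, another version in the methods) and deposited raw counts per gene from featureCounts 1.4.6-p5 (exons of GENCODE vM1, NCBIM37). Per the file headers no option for strand, pairs or multiple hits was set, so that mates count separately. A further library named in the header was not analysed here. Mitochondrial (37) and ribosomal (580) genes were left out, and 17175 genes reaching 5 counts in 4 or more of the 7 libraries were tested. edgeR 4.0.16 (R 4.3.3) gave TMM-normalized CPM, RPKM over exon length and quasi-likelihood tests of KO against WT over all tested genes, with Benjamini-Hochberg adjustment. The limits (adjusted p under 0.01, absolute log2 fold change above 1) followed the study, which names no edgeR test. DESeq2 1.42.0, edgeR's exact test and other settings were alternatives. Permutation tests used all 35 splits of 3 and 4 libraries on log2(CPM + 1). The steps were tested on simulated data.

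Members, pathway and marker lists, tests and alternatives were chosen with earlier results of these data known. Named genes were the 8 members, *Lalba*, the up to 3 genes of each list with the lowest unadjusted p if under 0.05, its highest gene by RPKM and the 5 genes most like *B4galt1* and *Slc2a1*. *Hk1* and *Slc35a1* were named after their values were seen. Some genes that this rule takes in are withheld and not reported here, though the counts over lists include them. Member counts were between 401 (*Galt*) and 47625 (*B4galt1*) per library.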

Additional observations from a re-analysis of the deposited data

How the results depend on the processing

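The limits are the 7 libraries and the spread among them. Under 25 alternatives each, *B4galt1* stayed between -1.58 and -0.82, *Slc2a1* between -1.33 and -0.53 and *Lalba* between -1.76 and -1.07 on the log2 scale, and *Slc35a2* and *Pgm1* also kept a negative sign. The exact, robust and likelihood ratio tests of edgeR and the changed limits reuse the same scaled counts and could hardly move these values. *B4galt1* was at -1.36 in each of them. The adjusted p of *B4galt1* ran from 2.4e-04 (DESeq2) to 0.574 (lymphocyte covariate). The calls of *B4galt1*, *Slc2a1* and *Lalba* came only with edgeR's exact and likelihood ratio tests and DESeq2, and the cause was not tested. Genes called in all were 0 by the quasi-likelihood test and with any 1 library left out (0 to 0), 1 without the filter on low counts, 1 at an adjusted p of 0.05, 426 by the exact test (247 lower, 179 higher), 464 by the likelihood ratio test (254 and 210) and 572 by DESeq2 (281 and 291).

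Of the pathway genes, 13 were lower and 2 higher at an unadjusted p under 0.05, against 7 and 9 with library sizes only and 8 and 1 with the lymphocyte covariate. With any 1 library left out 11 to 20 were lower and 0 to 5 higher, the 20 without KO replicate 4, the 5 without KO replicate 4 or WT replicate 2 and the 0 without WT replicate 1. Of the same-numbered libraries, replicates 1 deviated together (r of 0.44) but replicates 2 and 3 did not (0.07 and -0.08), so that the numbers were not taken as pairs. With the replicate block 15 pathway genes were lower and 8 higher, and *Lalba* was at -1.76. The shares of all tested genes at that limit were not counted under these alternatives. With library sizes only the median of all genes was 0.42, so the shares of the main fit do not apply there. The changed counts are therefore not a result about the pathway genes.

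The sign turned for 9 named genes. With library sizes only, which moved the median of all genes from 0.05 to 0.42 and so fixes these turns, *Ugp2* was at 0.16, *Galt* at 0.33, *Pgm2* at 0.35, *B4galt7* at 0.012 and *Pygb* at 0.29, all below that median. With any 1 library left out, *Galt* ran from -0.18 to 0.19, *Pgm2* from -0.16 to 0.080, *Slc2a8* from -0.16 to 0.24, *Gpi1* from -0.037 to 0.40, *Pgm5* from -0.0035 to 0.67, *Pygb* from -0.14 to 0.0033 and *Aqp1* from -0.056 to 0.20. Without KO replicates 1 and 3, *Galt* was at 0.19, *Pgm2* at 0.13, *Pgm5* at -0.35 and *Pygb* at 0.029. With the lymphocyte covariate, *Galt* was at 0.31, *Pgm2* at 0.26, *Pgm5* at -0.63 and *Pygb* at 0.066. With the replicate block *Slc2a8* was at -0.15. Within lane 4, *Slc2a8* was at -0.045, *Aqp1* at -0.041, *Gpi1* at -0.18 and *Pygb* at 0.041. Of the other results for single genes, 690 stayed on the same side of the threshold or within 1 SD, 23 were newly past it and 15 moved. The fold changes among them kept their sign. These counts take in the alternatives that could hardly move a fold change, and permutation p-values on CPM without a log, which have no sign.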
